A study of Homo sapiens with 6 samples.

Results

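Antioxidant enzymes were examined in MO3.13 cells with and without exposure to Klotho. The set was fixed by name and consisted of 10 genes: GPX1, GPX4, CAT, PRDX3, PRDX5, PRDX6, SOD1, TXNRD1, HMOX1 and NQO1. A gene counted as measured where the array annotation paired a probe set with that gene alone, and 8 of the 10 met this rule, of 14232 genes that did so on the array. Each of the 8 had 1 such probe set. NQO1, the quinone reductase, shared its only probe set with a neighbouring symbol, and PRDX5, a peroxiredoxin of mitochondria, peroxisomes and cytosol, was not named in the annotation used here, so both were not measured.

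MO3.13 is a human line that the submitters label an oligodendroglioma line and that is otherwise known as a fusion of oligodendrocytes with rhabdomyosarcoma cells. The 3 Klotho arrays hold cells given recombinant mouse Klotho at 0.4 µg/mL in DMEM without serum for 3.5 h, and the 3 control arrays hold cells described only as grown in DMEM with 10% fetal bovine serum, a medium in which the treated cells had been grown too. Serum-free medium is named for the Klotho group alone, so Klotho and the absence of serum cannot be told apart in any difference below. Nothing in the labels states that the arrays within a group were separate cultures, so the p-values reflect array-to-array spread that could be purely technical. Of 8 measured oligodendrocyte lineage markers only CNP, an early myelin enzyme (8.81 in Klotho and 8.83 in control cells), lay above the median probe set (6.40). The skeletal muscle markers MYOD1 (9.63 in Klotho and 9.72 in control cells), MYOG, DES, CHRNA1 and ACTC1, 5 of 7, lay above it. The muscle factors MYF6 (5.25 in Klotho and 5.08 in control cells) and MYF5 (3.66 in Klotho and 3.60 in control cells) lay below it. Myelin genes such as MBP (5.27 in Klotho and 5.26 in control cells) and MOG (4.59 in Klotho and 4.58 in control cells) lay below it. The signal of a probe set depends on its probes, so these positions describe brightness and do not rank the transcripts, and the line is called here by its name only. The array-wise mean of the oligodendrocyte markers ran from 5.85 to 6.06 on the Klotho arrays and from 5.91 to 5.99 on the control arrays. That of the muscle markers ran from 8.29 to 8.33 on the Klotho arrays and from 8.33 to 8.37 on the control arrays, and no marker passed the adjusted threshold. DES, the muscle intermediate filament gene, measured 8.32 ± 0.06 in Klotho and 8.58 ± 0.09 in control cells (SD, n = 3 each). Its difference of -0.27 (95% interval -0.47 to -0.06) was larger than that of any of the 8 enzymes. DES was named because its interval, alone among the markers, excluded 0. Its limma adjusted p was 0.998, and 2.07% of all genes had an unadjusted limma p under 0.05. Of the other muscle markers, MYF6 (0.17), MYF5 (0.07) and CHRNA1 (0.01) were positive. MYOD1 (-0.09), ACTC1 (-0.06) and MYOG (-0.04) were negative.

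Cells convert superoxide, a by-product of respiration, to hydrogen peroxide with superoxide dismutases and then remove the peroxide with catalase, glutathione peroxidases and peroxiredoxins. The peroxidases draw their electrons from glutathione or thioredoxin, which are kept reduced at the expense of NADPH, for thioredoxin by thioredoxin reductase. The transcription factor NRF2, held down by KEAP1 until oxidants or electrophiles release it, raises many of these genes through the antioxidant response element, while FOXO factors raise some others. In mice and in cultured cells Klotho has been described as favouring antioxidant enzymes by way of FOXO factors, and oligodendrocytes are known for their sensitivity to oxidants and their high iron content.

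Because NRF2 reaches its targets through a short DNA element, the 250 bases before the annotated start sites were searched for its core, TGANNNNGC, on both strands. RefSeq promoters (GRCh38.p14) matched 7 of the 10 genes with 11 windows, some of which overlap. HMOX1, PRDX6 and SOD1 had no window and were not searched. The core was found for 4 genes, TXNRD1, CAT, PRDX3 and NQO1, in 5 of the 11 windows, against 35.2% of all 35116 windows of the same length. The stricter form TGACNNNGC, which is contained in the core, stood in each TXNRD1 window and in no other of the 11, against 10.9% of all windows. TXNRD1 and CAT are shown as genes with a match, with the matched letters in capitals, and GPX1, the gene with the largest difference below, as one without. The matches begin 99 bases before the first TXNRD1 start site, 198 and 102 bases before the other and 23 bases before that of CAT; the match at 102 bases lies on the opposite strand. A match is a description of letters and does not show that a factor binds, and which start site these cells use was not measured.
TXNRD1, first start site, chr12:104215529-104215778, + strand: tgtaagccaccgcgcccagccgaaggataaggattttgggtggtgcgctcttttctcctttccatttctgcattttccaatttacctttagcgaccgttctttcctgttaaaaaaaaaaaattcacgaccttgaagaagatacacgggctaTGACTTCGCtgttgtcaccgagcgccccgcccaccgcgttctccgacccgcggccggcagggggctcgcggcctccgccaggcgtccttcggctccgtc
TXNRD1, other start site, chr12:104286782-104287031, + strand: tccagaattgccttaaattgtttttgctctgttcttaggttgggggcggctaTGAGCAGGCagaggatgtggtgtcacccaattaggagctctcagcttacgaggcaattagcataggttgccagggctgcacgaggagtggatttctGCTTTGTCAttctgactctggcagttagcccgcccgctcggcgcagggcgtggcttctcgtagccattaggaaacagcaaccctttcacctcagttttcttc
CAT, chr11:34438684-34438933, + strand: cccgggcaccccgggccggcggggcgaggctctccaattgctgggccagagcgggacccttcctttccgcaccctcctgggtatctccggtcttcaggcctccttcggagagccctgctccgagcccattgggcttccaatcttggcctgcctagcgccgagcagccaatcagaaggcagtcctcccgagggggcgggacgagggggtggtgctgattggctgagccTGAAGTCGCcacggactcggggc
GPX1, chr3:49358354-49358603, - strand: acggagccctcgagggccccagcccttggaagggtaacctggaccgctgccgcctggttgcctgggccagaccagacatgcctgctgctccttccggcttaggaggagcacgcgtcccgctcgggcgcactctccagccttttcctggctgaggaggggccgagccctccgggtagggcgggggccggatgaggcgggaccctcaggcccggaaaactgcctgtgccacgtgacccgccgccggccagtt

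No measured antioxidant enzyme passed a test threshold between Klotho and control cells. Of the 8, 0 passed an adjusted p of 0.05 (limma, Benjamini-Hochberg over all 22011 probe sets), where the share over all probe sets was also 0%, and 0 had an unadjusted p under 0.05, against 3.19% of all probe sets (703 of them) and 2.07% of all genes. The adjusted p was 0.998 for each of the 8. Their log2 differences, Klotho minus control, ran from -0.22 for GPX1 to 0.17 for PRDX6. The 95% intervals of all 8 stayed inside a 1.5-fold change up or down, as did those of 91.7% of all genes. The bound farthest from 0 was the lower one of GPX1, a 1.45-fold decrease.

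**Figure D1:**
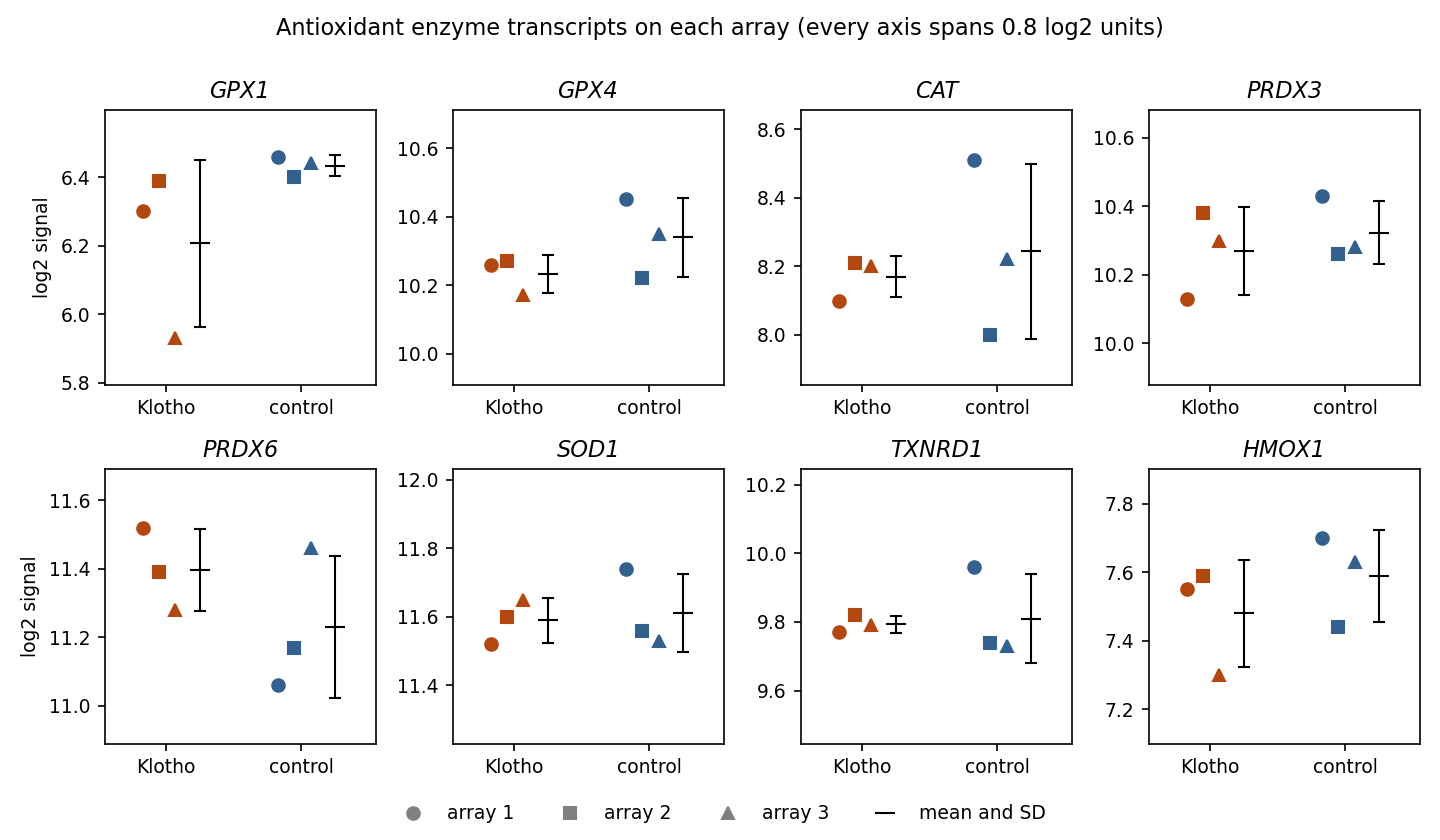
Log2 signal of the 8 measured antioxidant enzymes on each array, with Klotho arrays left and control arrays right; symbols mark array 1, 2 or 3 and the black bars the mean and SD (n = 3). The groups overlap for every gene except GPX1, whose Klotho arrays lie between 5.93 and 6.39 and whose control arrays lie between 6.40 and 6.46.

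Of the glutathione peroxidases, GPX1 is the selenium enzyme that reduces hydrogen peroxide in cytosol and mitochondria. Its log2 signal was 6.30, 6.39 and 5.93 on Klotho arrays 1, 2 and 3, against 6.46, 6.40 and 6.44 on control arrays 1, 2 and 3. All 3 Klotho values lay below all 3 control values, although Klotho array 2 and control array 2 nearly touched, and Klotho array 3 stood well below the rest. GPX1 was the only 1 of the 8 enzymes whose groups did not overlap, and 7.89% of all genes showed this in either direction. The means were 6.21 ± 0.24 in Klotho and 6.43 ± 0.03 in control cells (SD, n = 3 each), a difference of -0.22 (95% interval -0.54 to 0.09), or 0.857-fold, with an adjusted p of 0.998 in limma. The 3 control arrays spanned 0.05 and the 3 Klotho arrays 0.46. Without Klotho array 3 the difference was -0.08.

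GPX4, which reduces lipid hydroperoxides within membranes and protects cells from ferroptosis, gave 10.26, 10.27 and 10.17 on the Klotho arrays, against 10.45, 10.22 and 10.35 on the control arrays. Control array 2 lay within the Klotho range, so the groups overlapped. The difference was -0.11 (95% interval -0.32 to 0.11; 10.24 ± 0.06 in Klotho and 10.34 ± 0.12 in control cells, SD, n = 3 each), with an unadjusted limma p of 0.273. It was -0.05 without control array 1 and -0.17 without control array 2.

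Catalase, encoded by CAT, breaks down hydrogen peroxide in peroxisomes. It measured 8.10, 8.21 and 8.20 on the Klotho arrays, against 8.51, 8.00 and 8.22 on the control arrays. The control arrays enclosed all 3 Klotho values, spanning 0.51 where the Klotho arrays spanned 0.11. The difference of -0.07 (95% interval -0.40 to 0.26) was therefore small beside the spread of the controls, and it was 0.06 without control array 1 and -0.19 without control array 2. CAT had the widest standard error of the 8 enzymes (0.14), larger than that of 78.7% of all genes.

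The peroxiredoxins are peroxidases that act through a reactive cysteine. PRDX3, which works in the mitochondrial matrix with thioredoxin, gave 10.13, 10.38 and 10.30 on the Klotho arrays, against 10.43, 10.26 and 10.28 on the control arrays. The groups overlapped broadly, with Klotho array 1 lowest and control array 1 highest, and the difference was -0.06 (95% interval -0.29 to 0.18). It was 0.01 without Klotho array 1 and -0.11 without Klotho array 2. PRDX6, which draws on glutathione and also acts on phospholipids, was the only 1 of the 8 with a positive difference. It gave 11.52, 11.39 and 11.28 on the Klotho arrays, against 11.06, 11.17 and 11.46 on the control arrays. Control arrays 1 and 2 were the lowest of the 6, whereas control array 3 lay between Klotho arrays 1 and 2. The means were 11.40 ± 0.12 in Klotho and 11.23 ± 0.21 in control cells (SD, n = 3 each), a difference of 0.17 (95% interval -0.14 to 0.48), or 1.13-fold, with an unadjusted limma p of 0.230. The difference was 0.29 without control array 3, with an unadjusted limma p of 0.0491 and an adjusted p of 0.997, and 0.09 without control array 1.

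SOD1 encodes the copper and zinc superoxide dismutase of the cytosol, and TXNRD1 the cytosolic selenium enzyme that passes electrons from NADPH to thioredoxin. SOD1 gave 11.52, 11.60 and 11.65 on the Klotho arrays, against 11.74, 11.56 and 11.53 on the control arrays. TXNRD1 gave 9.77, 9.82 and 9.79 on the Klotho arrays, against 9.96, 9.74 and 9.73 on the control arrays. In each gene control array 1 was the highest of the 6 and the other arrays lay close together. These were the smallest differences of the 8, -0.02 for SOD1 (95% interval -0.23 to 0.20) and -0.02 for TXNRD1 (95% interval -0.23 to 0.20). Each turned positive without control array 1, to 0.05 for SOD1 and 0.06 for TXNRD1. The 3 Klotho arrays spanned 0.04 in TXNRD1, the narrowest span of any of the 8 enzymes among the Klotho arrays.

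HMOX1 encodes the inducible heme oxygenase, which degrades heme to biliverdin, iron and carbon monoxide and is a widely used readout of NRF2 and of BACH1, its repressor. It gave 7.55, 7.59 and 7.30 on the Klotho arrays, against 7.70, 7.44 and 7.63 on the control arrays. Klotho array 3 was the lowest of the 6, as it was for GPX1 and GPX4, and control array 2 lay within the Klotho range. The difference was -0.11 (95% interval -0.39 to 0.18; 7.48 ± 0.16 in Klotho and 7.59 ± 0.14 in control cells, SD, n = 3 each), and it was -0.01 without Klotho array 3.

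**Figure D2:**
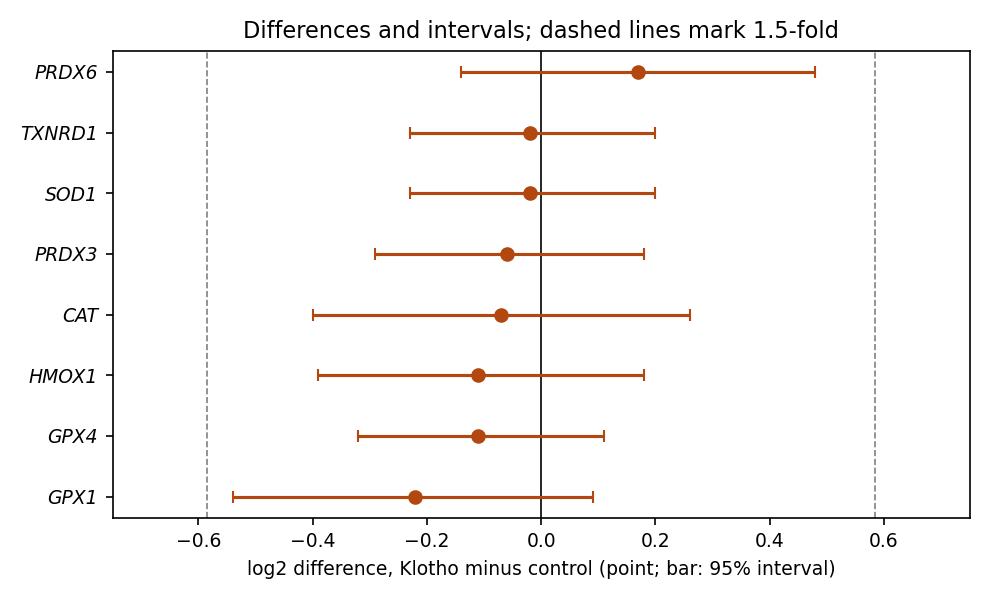
Log2 difference, Klotho minus control, of each measured enzyme (point) with its 95% limma interval (bar); the dashed lines mark a 1.5-fold change in either direction. Every interval crosses 0 and stays inside the dashed lines, and GPX1 at -0.22 and PRDX6 at 0.17 lie at the ends.

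As a set, 1 of the 8 enzymes had a positive and 7 a negative difference, and the median was -0.06. Over all 14232 genes the median was -0.03 and 62.6% were lower as deposited. The split moved with the scaling. For the enzymes, median centring of each array gave 3 positive and 5 negative (set median -0.01), quantile normalization 1 positive and 7 negative (-0.02), and cyclic loess 2 positive and 6 negative (-0.03). For all genes, median centring gave 8150 positive and 6082 negative, quantile normalization 7577 positive and 6655 negative, and cyclic loess 7069 positive and 7163 negative. The median size of the difference, regardless of sign, was 0.09 for the 8 enzymes and 0.07 for all genes, with a median standard error of 0.11 for each. All 8 probe sets were brighter than the lower quartile of all probe sets (4.70). That of GPX1 was the dimmest, with a 6-array mean of 6.32, just below the median probe set (6.40). The others ran from 7.53 for HMOX1 to 11.60 for SOD1.

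Across the arrays, the highest or lowest of the 6 values fell on control array 1 or Klotho array 3 for several of the 8 transcripts. Control array 1 gave the highest value of the 6 arrays for 7 of the 8 enzymes and the lowest for PRDX6, whereas 33.8% of all genes were highest there. On average the 8 enzymes stood 0.12 above their own 6-array means on control array 1, and all genes 0.05. With each array centred on its median 5 of the 8 were still highest on control array 1 (21.4% of all genes), and with quantile normalization 4 of the 8 (19.1% of all genes). Klotho array 3 gave the lowest value for 3 of the 8, GPX1, GPX4 and HMOX1, against 16.4% of all genes. Their deviations there were -0.39, -0.12 and -0.24 from their means, and GPX4 (10.17) was close to control array 2 (10.22). Klotho array 1 gave the lowest value for 2 of the 8, against 28.5% of all genes. Without control array 1 the set median was 0.02. No scan dates, slides or RNA quality measures were used, so the part of any of these in the array-wise pattern was not tested.

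**Figure D3:**
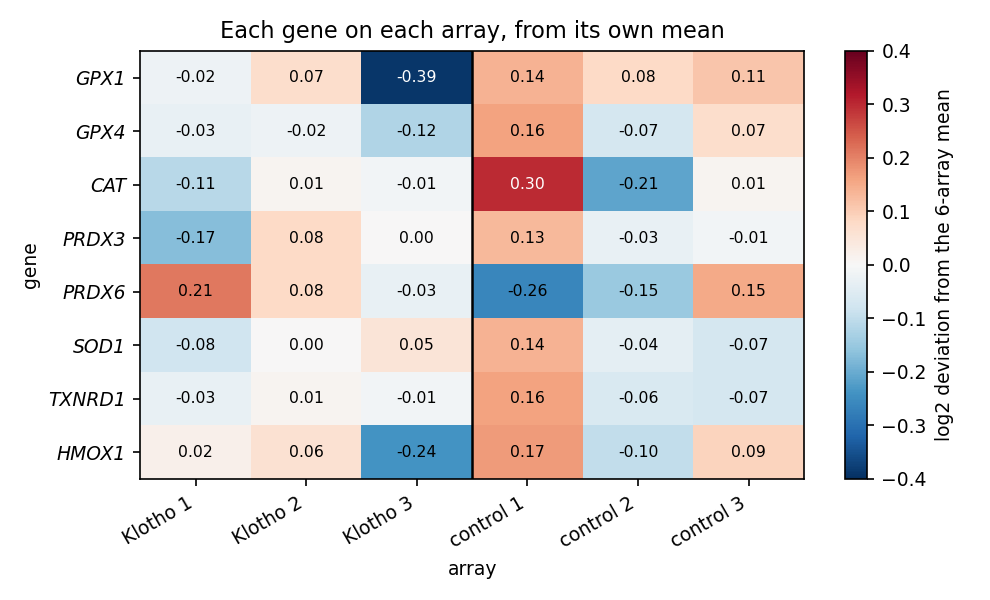
Deviation of each enzyme (rows) on each array (columns, Klotho left and control right) from its own mean over the 6 arrays, in log2 units, as colour and number. The column of control array 1 is positive for 7 of the 8 genes and -0.26 for PRDX6, and the deepest cell is GPX1 on Klotho array 3 at -0.39.

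**Figure D4:**
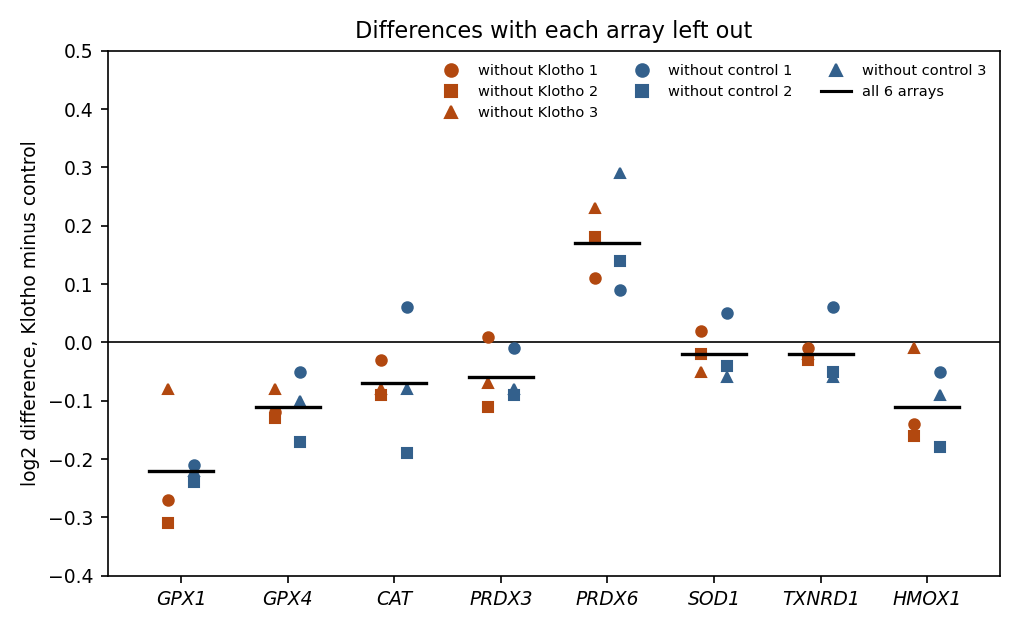
Log2 difference, Klotho minus control, of each enzyme with all 6 arrays (black line) and with each array left out (symbols; orange for a Klotho array and blue for a control array). GPX1 ranges from -0.31 to -0.08 and PRDX6 from 0.09 to 0.29, and CAT, PRDX3, SOD1 and TXNRD1 lie on either side of 0.

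The wider antioxidant system was followed through a further 109 genes grouped by role, of which 85 were measured. None passed the adjusted threshold (limma, 0 of 85), and 1 had an unadjusted p under 0.05, against 2.07% of all genes. Groups without overlap were seen for 1 gene higher and 3 genes lower in Klotho cells, against 7.89% of all genes. The differences were 32 positive and 53 negative with a median of -0.03, the same median as for all genes, and 53, 50 and 48 of the 85 were positive with median centring, quantile normalization and cyclic loess. The intervals of 84 of the 85 lay within a 1.5-fold change, the exception being GPX2, a glutathione peroxidase of the gut epithelium whose probe set was dim (mean 4.27).

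The gene with the unadjusted p under 0.05 was GLRX, glutaredoxin, which uses glutathione to release protein thiols from mixed disulfides. It gave 8.63, 8.86 and 8.96 on the Klotho arrays, against 8.57, 8.50 and 8.53 on the control arrays. All 3 Klotho values lay above all 3 controls, with a control span of 0.07, and 7.89% of all genes had groups without overlap. The difference was 0.29 (95% interval 0.03 to 0.54), with an unadjusted p of 0.0316 and an adjusted p of 0.998 in limma. It was 0.21 without Klotho array 3 and 0.38 without Klotho array 1, and 10 of the 16 alternatives left its unadjusted p under 0.05. It did not pass the adjusted threshold in any of them (smallest adjusted p 0.633).

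Of 14 measured genes of glutathione peroxidases and glutathione metabolism, 8 had positive and 6 negative differences (10 or 11 positive under the other scalings). Besides GLRX the smallest p was that of GPX7, a peroxidase of the endoplasmic reticulum (-0.15, 95% interval -0.41 to 0.11). GCLC and GCLM, the subunits of the rate-limiting enzyme of glutathione synthesis, differed by 0.03 and 0.02, and SLC7A11, the cystine importer that supplies it, by -0.01. These are commonly used NRF2 targets, and their intervals lay within a 1.5-fold change. Of 9 glutathione transferases 2 were positive and 7 negative (6, 4 and 4 positive under median centring, quantile normalization and cyclic loess), with GSTZ1, an enzyme of tyrosine breakdown, at -0.25 (95% interval -0.54 to 0.04) and the microsomal MGST3 at 0.12.

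The 9 other measured peroxiredoxin and thioredoxin genes had differences between -0.07 and 0.03. SRXN1, sulfiredoxin, which repairs over-oxidised peroxiredoxins, and TMX1, a thioredoxin-related membrane protein of the endoplasmic reticulum, were nearest to the threshold, each at -0.07. PRDX1, a major peroxiredoxin of the cytosol, differed by 0.00 (95% interval -0.18 to 0.18). Besides SOD1, the superoxide dismutase role held 2 measured genes, both negative under all 4 scalings, where 62.6% of all genes were negative as deposited. The 2 were the extracellular enzyme SOD3, at -0.08 as deposited, and CCS, the copper chaperone of SOD1, at -0.07. Neither interval excluded 0, and SOD3 was at 0.00 without Klotho array 3. SOD2 was not measured.

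KEAP1, the adaptor that marks NRF2 for degradation, measured 9.36 ± 0.05 in Klotho and 9.39 ± 0.12 in control cells, and BACH1, which represses HMOX1, 8.99 ± 0.07 and 9.02 ± 0.15 (log2, SD, n = 3 each). Each differed by -0.03. NFE2L2, which encodes NRF2, was not measured. Of the 12 measured genes of NRF2 regulation and other NRF2 targets, 3 were positive and 9 negative (7 positive under each of the other scalings). EPHX1, the microsomal epoxide hydrolase, gave 6.10, 6.26 and 6.33 on the Klotho arrays, against 6.40, 6.36 and 6.52 on the control arrays. Its groups did not overlap, as for 7.89% of all genes, and its difference was -0.20 (95% interval -0.43 to 0.03). MAFG, a small MAF partner of NRF2, differed by -0.14, also without overlap.

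In the supply of NADPH, 5 of 6 measured genes were negative under all 4 scalings, with a median of -0.09 as deposited and between -0.05 and -0.04 under the others. Of all 14232 genes, 62.6% were negative as deposited. Under median centring, quantile normalization and cyclic loess 6082, 6655 and 7163 of them were. The 4 scalings use the same 6 arrays, so a sign kept under each of them is not separate evidence. IDH1, the cytosolic isocitrate dehydrogenase, gave 8.78, 8.73 and 8.83 on the Klotho arrays, against 8.85, 8.88 and 8.98 on the control arrays. The groups were separate by a narrow margin, as for 7.89% of all genes at any margin. The IDH1 difference was -0.12 (95% interval -0.31 to 0.07), and NNT, the mitochondrial transhydrogenase, also stood at -0.12. Methionine sulfoxide reductases and other repair genes were 7 negative of 8 (6 of 8 under each of the other scalings), with a median of -0.13 as deposited and between -0.10 and -0.08 otherwise. MSRB2, a mitochondrial methionine sulfoxide reductase, stood at -0.19 (95% interval -0.51 to 0.12) and AIFM2, also called FSP1, which counters ferroptosis alongside GPX4, at -0.14 (95% interval -0.39 to 0.10). No gene of these groups had an unadjusted limma p under 0.05, against 2.07% of all genes.

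The heme and iron genes (7 measured) had a median of 0.01, with HMOX2, the constitutive heme oxygenase, at 0.10 and BLVRB, a biliverdin reductase, at -0.08. The genes grouped under selenoprotein synthesis (6 measured) had a median of -0.01, with the elongation factor EEFSEC at -0.15 and SEPHS1, a selenophosphate synthetase homologue, at 0.04. The FOXO factors, sestrins and CITED2 (6 measured) lay between -0.05 and 0.04, with FOXO1 at 0.04 (95% interval -0.18 to 0.27) and CITED2, a FOXO target, at -0.05. Their 6 intervals lay within a 1.23-fold change. The sources of oxidants (6 measured) lay between -0.10 and 0.12, with the NADPH oxidase subunit CYBB, a dim probe set, at 0.12 and the monoamine oxidase MAOA at 0.11. Under the other 3 scalings the medians of these last 4 roles lay between 0.04 and 0.08, and that of all genes between 0.00 and 0.02. Some of the small differences of genes named by role depended on single arrays. HMOX2 was at 0.00 without control array 2 and 0.20 without control array 3, and BLVRB at -0.02 without control array 3. NNT was at -0.04 and MGST3 at 0.22 without control array 1, MGST3 at 0.04 without control array 2, and EEFSEC at -0.06 without control array 3. Others stayed farther from 0 with any 1 array left out, such as EPHX1 between -0.25 and -0.13 and GSTZ1 between -0.36 and -0.18. Both were named for a small p, and the fits share most of their arrays, so this steadiness follows in part from that choice. The unadjusted limma p was under 0.05 in 1 of 16 alternatives for EPHX1 and in 2 of 16 for GSTZ1.

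**Figure D5:**
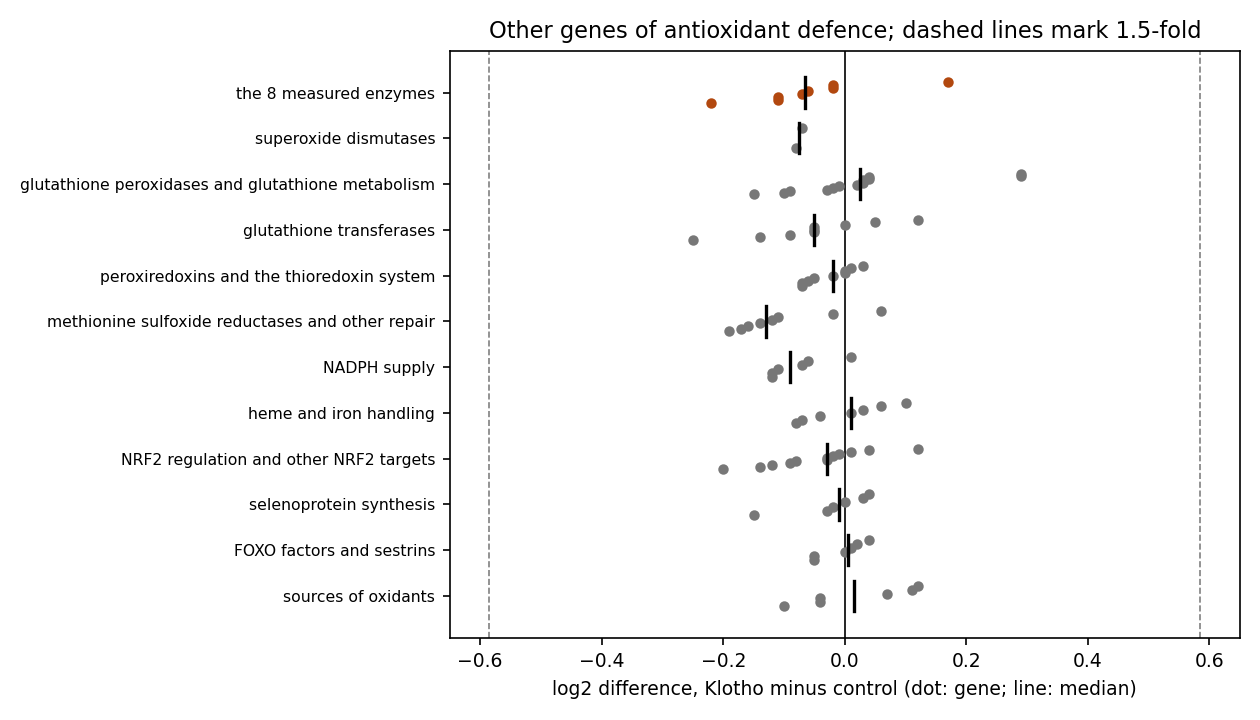
Log2 difference, Klotho minus control, of the 8 measured enzymes (top, orange) and of 85 further genes of antioxidant defence by role (grey); the vertical bars are medians and the dashed lines mark a 1.5-fold change. The medians of the roles lie between -0.13 and 0.02, and no gene reaches a dashed line.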

How the data were processed

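Expression was measured on 6 exon-type arrays of MO3.13 cells from 100 ng of total RNA with NuGEN amplification, per the labels' protocols. The authors deposited log2 values for each probe set on each array, made with RMA (no version) per the submitters' processing notes. Which software, annotation and filters were applied is not given in the sources used here. Array medians ran from 6.36 to 6.47, and pairs of arrays correlated at 0.985 to 0.991. The 22011 probe sets comprised 14432 with 1 gene symbol, 2408 with several and 5171 unnamed. Of several probe sets with the same lone symbol, the brightest on average stood for the gene.

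Groups came from the sample titles. A 2-sided limma test (version 3.58.1, under R 4.3.3; lmFit and eBayes) covered all probe sets, with a Benjamini-Hochberg threshold of 0.05 and 95% intervals based on the moderated variance. The code was tested on simulated data. Array data give no read depth, no detection calls were used, and precision is limited by how many arrays there are. The enzymes, the further gene lists and the tests were chosen with earlier results of these data known. Named genes are all measured enzymes, the cell markers, KEAP1 and BACH1 and, per role, the 2 genes of smallest p; GPX2, GCLC, GCLM, SLC7A11 and PRDX1 were named after their values were seen. Alternatives were other scalings, filters, variance models, array weights, a replicate block and leaving out each array.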

Additional observations from a re-analysis of the deposited data

How the results depend on the processing

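Under the 16 alternatives, none of the measured enzymes passed the adjusted threshold (smallest limma adjusted p 0.780), and no probe set did in the 15 that tested all probe sets or a filtered subset of them (smallest 0.084). Of the 128 enzyme values, 11 changed sign, all of them in CAT, PRDX3, SOD1 and TXNRD1, and no value that had passed was lost, since none had. The count of enzymes with an unadjusted p under 0.05 ran from 0 to 1 when an array was left out; the 1 was PRDX6 without control array 3. The set median ran from -0.13 without control array 2 to 0.02 without control array 1, and from -0.06 to -0.01 under the other alternatives. The number of probe sets with an unadjusted p under 0.05 (703) was 436 without dim probe sets and 447 with single-symbol probe sets alone, where fewer were tested. It was 1644 with array weights and 1200 without Klotho array 3; the cause was not tested. With the replicate number as a block the set median was -0.06 and 0 enzymes passed. No label says that the number marks a shared culture or day, so the numbers were not taken as pairs. Same-numbered arrays deviated from their group means with correlations of -0.176, 0.0637 and -0.139, and differently numbered ones with -0.13 to 0.237. Deviations within a group of 3 sum to 0, so these correlations cannot decide whether arrays were paired. Without detection calls, a bound on a dim signal need not bound the transcript.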
